A study of Mus musculus with 20 samples.

Results

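The Hox cluster genes were taken as every protein-coding gene whose mouse symbol is Hoxa, Hoxb, Hoxc or Hoxd followed by a number alone. All 39 were found among the 49585 genes of each count table, with 11 genes in the Hoxa cluster, 10 in Hoxb, 9 in Hoxc and 9 in Hoxd. At least 1 read was counted for 37 of them, and Hoxc11 and Hoxc12 had no count in any of the 20 libraries, where a count of 0 allows up to 3 counts per library. Hox genes encode homeodomain transcription factors that give cells their position along the body axis. Within a cluster the genes lie in the order in which they are expressed from head to tail, so that low-numbered paralogs mark anterior and high-numbered paralogs posterior tissue. In the female reproductive tract the posterior genes Hoxa9, Hoxa10, Hoxa11 and Hoxa13 are known for patterning oviduct, uterus, cervix and vagina, while the ovary forms beside the mesonephros in the trunk.

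RNA was read from whole ovaries of B6D2F1 mice to find the genes that depend on FIGLA and LHX8, a basic helix-loop-helix and a LIM-homeodomain factor of oocytes. Figla knockout (Figla-/-) and control (Figla+/-) ovaries were compared at embryonic day 18.5 (E18.5), with 4 libraries each, and at postnatal day 0 (P0), with 3 each. Lhx8 knockout (Lhx8-/-) and control ovaries were compared at P0, with 3 each; the genotype field calls these controls heterozygous and the library names call them wild type. Both knockouts are described only by genotype, and the part of each gene that was deleted is not given in the sources used here. Germ cells and somatic cells were read together, so that fewer cells of a type and less RNA per cell cannot be told apart.

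The libraries were grouped by their own names, which disagree with the sample titles: the 2 agree in 8 of 14 Figla libraries and in 0 of 6 Lhx8 libraries. Grouping by title turns the sign of every Lhx8 difference below, so each Lhx8 direction rests on the library names. By those names, Figla mRNA averaged 37.0 ± 4.35 counts per 1000000 (CPM, SD, n = 3) in P0 controls and 0.373 ± 0.236 in P0 knockouts, and Lhx8 mRNA averaged 95.7 ± 6.42 CPM in Lhx8-set controls and 23.7 ± 6.74 in their knockouts. At E18.5 Figla ranged from 3.78 to 26.7 CPM in controls and from 0.828 to 1.53 CPM in knockouts, with the lowest control, replicate 3, near the knockouts. At that age replicates 1 and 2 of each group were near-identical libraries and were summed as 1 sample, called replicate 1-2, which leaves 3 samples a group. Library totals ran from 5583392 to 13408022 counts in the Figla set and from 8297204 to 9978350 in the Lhx8 set, of which all Hox genes together took 1456 to 2902 and 2626 to 5014 counts per library. Separate animals or litters are not named in the labels, and the p-values below rest on a spread between libraries that may be technical in part.

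The ovary expressed mainly paralogs 4 to 10, called central here, of the Hoxc and Hoxd clusters. In Figla-set controls at P0, where reads cover whole transcripts and levels can be set side by side per kilobase (kb) of exon, 14 of 39 Hox genes exceeded 1 CPM per kb. The 6 highest, Hoxd9, Hoxd8, Hoxc6, Hoxc8, Hoxc4 and Hoxc5, made up 67.0% of the summed Hox level per kb. By position, paralogs 4 to 8 held 61.6% of that sum over 15 genes and paralogs 9 and 10 held 33.6% over 7 genes. Paralogs 1 to 3 held 3.65% over 8 genes, and paralogs 11 to 13 held 1.15% over 9 genes. By cluster, Hoxd held 41.8%, Hoxc 36.7%, Hoxa 11.2% and Hoxb 10.3%.

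**Figure D1:**
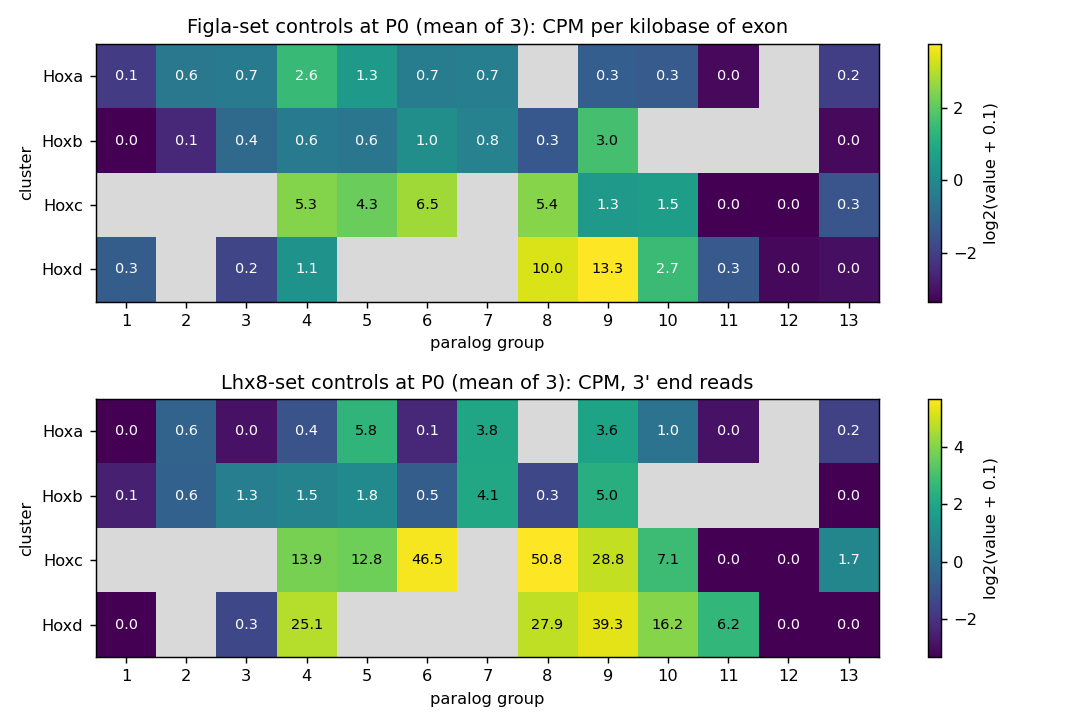
Mean level of each Hox gene in control ovaries at P0, by cluster (rows) and paralog group (columns), with the value printed in each cell and colour on a log2 scale; grey marks paralogs that the mouse lacks. The upper map gives CPM per kb in the Figla set and the lower map CPM in the Lhx8 set, and in both the highest cells lie in the middle of Hoxc and Hoxd. The right-hand columns are low in the upper map, while Hoxd11 reaches 6.17 CPM and Hoxc13 1.67 CPM in the lower map.

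Hoxd9, the highest Hox gene, had 13.2, 14.7 and 11.9 CPM per kb in the 3 Figla-set P0 controls, and its neighbour Hoxd8 had 10.5, 11.2 and 8.41. These samples do not overlap, and Hoxd9 was above Hoxd8 in each of the 3. Hoxc6, the highest gene of its cluster, had 4.72, 9.68 and 5.10 CPM per kb, a spread that covers the levels of the next genes in order, Hoxc8 at 5.42 ± 0.337 (SD, n = 3), Hoxc4 at 5.26 ± 0.964 and Hoxc5 at 4.31 ± 0.732. Hoxb9 was the highest gene of Hoxb at 3.66, 3.28 and 2.16 CPM per kb, and Hoxa4 the highest of Hoxa at 3.67, 2.32 and 1.77. Hoxb9, Hoxd10 (2.74 ± 0.522) and Hoxa4 did not differ beyond their spread. Below them, Hoxc10, Hoxc9, Hoxa5, Hoxd4 and Hoxb6 had means from 1.02 to 1.46 CPM per kb.

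At the posterior end, paralogs 11 to 13 were low or barely read. Of the other tract genes named above, Hoxa9 had 64 counts and Hoxa10 had 35 over the 3 Figla-set P0 controls. Their levels were 0.335 ± 0.146 and 0.306 ± 0.0881 CPM per kb (SD, n = 3). Hoxa11 had 1 count and Hoxd12 had 1 count over the 3 Figla-set P0 controls, Hoxd13 had 2 and Hoxb13 had 1. Hoxd11 at 0.296 ± 0.211, Hoxc13 at 0.264 ± 0.150 and Hoxa13 at 0.150 ± 0.0790 CPM per kb (SD, n = 3) were the highest of paralogs 11 to 13. At the anterior end Hoxa3, Hoxa2 and Hoxb3 led with 0.673, 0.606 and 0.443 CPM per kb, and Hoxb1 had no count in these samples. Over the 39 genes, levels in E18.5 and P0 controls had a Spearman rho of 0.97, given as a description of genes read with the same kit.

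Annotation bears on several of these levels. In the annotation of the count tables (GRCm38), the Hoxa genes lie on the minus strand of chromosome 6 from 52155590 to 52260880, Hoxb on the plus strand of chromosome 11 from 96194316 to 96368256, Hoxc on the plus strand of chromosome 15 from 102921103 to 103036852, and Hoxd on the plus strand of chromosome 2 from 74668310 to 74765142. Between the outermost Hox genes these intervals hold 46 other annotated genes, most of them non-coding. Exon bases of 16 Hox genes are shared with another gene, reaching 62.8% of the exon length in Hoxd3, 52.9% in Hoxb3 and 52.3% in Hoxd4, and by the counter's default a read on exons of 2 genes is given to neither. Over bases shared with no other gene, the level of Hoxd4 came to 2.35 CPM per kb in place of 1.12 and that of Hoxd3 to 0.483 in place of 0.179, and 14 genes again exceeded 1.

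The Lhx8 set was made with a kit that reads the 3' end of each mRNA, and it also gave its highest levels in the central block, in another order. In its controls Hoxc8 led with 48.8, 51.8 and 51.9 CPM, followed by Hoxc6 with 49.0, 43.7 and 46.7, and Hoxd9 with 37.1, 35.0 and 45.7. Hoxc9, at rank 11 per kb in the Figla set, stood at rank 4 here with 27.7, 30.4 and 28.2 CPM. Levels in the 2 sets had a Spearman rho of 0.83 over the 39 genes, which share neither kit nor unit of length. The last 500 exon bases, near which this kit reads, are all shared with other genes in Hoxa3, which had 0 to 3 counts per Lhx8 library and 43 to 112 per Figla sample. The same bases are shared in full in Hoxa7 and Hoxb2 and to 98.6% in Hoxb3, and these 3 genes had up to 62, 10 and 26 counts in an Lhx8 library. In Hoxa4, the highest Hoxa gene of the Figla-set P0 controls, 51.0% of them are shared. It had 4, 2 and 5 counts in the Lhx8-set controls and 2, 2 and 0 in the knockouts, too few to be tested.

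Sequence just upstream of the start was set beside these levels for 3 members: Hoxd8, among the highest genes, Hoxa5, with the largest knockout difference among the Hox genes tested, and Hoxd12, which was read at 0 to 2 counts per sample. The 250 bases before each start are given 5' to 3' on the gene's strand (RefSeq, GRCm38.p6), with CpG dinucleotides in capitals; they are chr2:74704365-74704614 on the plus strand, chr6:52204588-52204837 on the minus strand and chr2:74674763-74675012 on the plus strand. None of the 3 overlaps an annotated exon of the count tables.
Hoxd8: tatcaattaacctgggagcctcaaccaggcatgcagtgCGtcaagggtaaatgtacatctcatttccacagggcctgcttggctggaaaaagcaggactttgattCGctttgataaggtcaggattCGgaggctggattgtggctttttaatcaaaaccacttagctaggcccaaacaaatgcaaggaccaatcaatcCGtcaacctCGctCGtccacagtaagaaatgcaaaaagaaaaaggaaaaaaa
Hoxa5: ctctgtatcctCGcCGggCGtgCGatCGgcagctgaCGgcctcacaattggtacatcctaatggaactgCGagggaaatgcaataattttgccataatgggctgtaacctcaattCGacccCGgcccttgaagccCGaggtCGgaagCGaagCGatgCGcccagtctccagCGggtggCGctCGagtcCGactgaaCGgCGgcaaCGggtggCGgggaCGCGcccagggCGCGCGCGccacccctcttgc
Hoxd12: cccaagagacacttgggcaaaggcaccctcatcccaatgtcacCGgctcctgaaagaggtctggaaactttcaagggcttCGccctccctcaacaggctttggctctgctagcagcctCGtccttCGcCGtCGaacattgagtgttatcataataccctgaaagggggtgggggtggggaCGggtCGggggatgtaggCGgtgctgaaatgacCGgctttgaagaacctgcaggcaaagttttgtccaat

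The Hoxa5 window held 28 CpGs, Hoxd8 held 6 and the nearly silent Hoxd12 held 10, so that CpG number did not order these 3 genes by level. RefSeq windows were at hand for 22 Hox genes (24 windows), with a median of 12.5 CpGs against 6 over 32841 mouse promoter windows of this length, and 100% against 92.1% held at least 1. The E-box CANNTG, the letters that basic helix-loop-helix factors recognise, was in 17 of 24 Hox windows (70.8%, against 66.2% of all), with 2 copies in Hoxa5. The homeodomain motif TAATTA was in 2 of 24 (8.3%, against 4.8%), both of them windows of the same gene, Hoxd11. The HOX-PBX motif TGATTNAT was also in 2 (8.3%, against 2.8%), a window of Hoxa2 and a window of Hoxd11. Both strands were searched. The windows held matches as letters alone, and binding was not measured.

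Without Lhx8, Hox genes stood higher at P0, and 2 of them passed the test. Of the 39 genes, 20 had counts enough to be tested, and Hoxa5 and Hoxc6 rose (edgeR's quasi-likelihood test over 15274 genes, Benjamini-Hochberg adjusted p under 0.05). Among all genes tested in this comparison, 3.06% were called higher and 7.29% lower. The log2 fold change was above 0 in 19 of the 20, against 54.1% of all genes tested, with a median of 0.49 against 0.05.

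Hoxa5, a gene of the lower neck and upper trunk, had 6.17, 4.23 and 6.97 CPM in the Lhx8-set controls and 16.6, 15.7 and 11.2 CPM in the knockouts. The groups were well apart, and the log2 fold change was 1.33 (SE 0.27, adjusted p = 0.0123). The call was lost without control replicate 2 (log2 fold change 1.14, adjusted p = 0.0627). Hoxc6, a thoracic gene, had 49.0, 43.7 and 46.7 CPM in controls and 106, 61.0 and 86.6 CPM in knockouts. Its 3 knockouts spread widely but all lay above the controls, and the fold change was 0.87 on the log2 scale (SE 0.19, adjusted p = 0.0194). Leaving out control replicate 1, 2 or 3 raised its adjusted p to 0.0655, 0.0962 and 0.0680.

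Other central genes differed in the same direction without passing the test. Hoxd8 had 28.8, 24.2 and 30.7 CPM in controls and 49.7, 34.3 and 40.6 in knockouts (log2 fold change 0.57, SE 0.18, adjusted p = 0.0662). Hoxc9 had 27.7, 30.4 and 28.2 against 35.1, 35.0 and 50.9 CPM (0.48, SE 0.18, adjusted p = 0.111). Hoxc8 had 48.8, 51.8 and 51.9 against 77.0, 52.2 and 69.7 CPM (0.38, SE 0.16, adjusted p = 0.152). In all 3 the groups did not overlap, although the lowest Hoxc8 knockout was within 1 CPM of the highest control. In all, 7 of the 20 genes had all knockouts above all controls, against 15.6% of genes tested, and 8 were higher with an unadjusted p under 0.05, against 12.9%. Hoxc13 was the gene below 0, at -0.30 (SE 0.49), and Hoxb7 stood at 0.01 (SE 0.36).

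**Figure D2:**
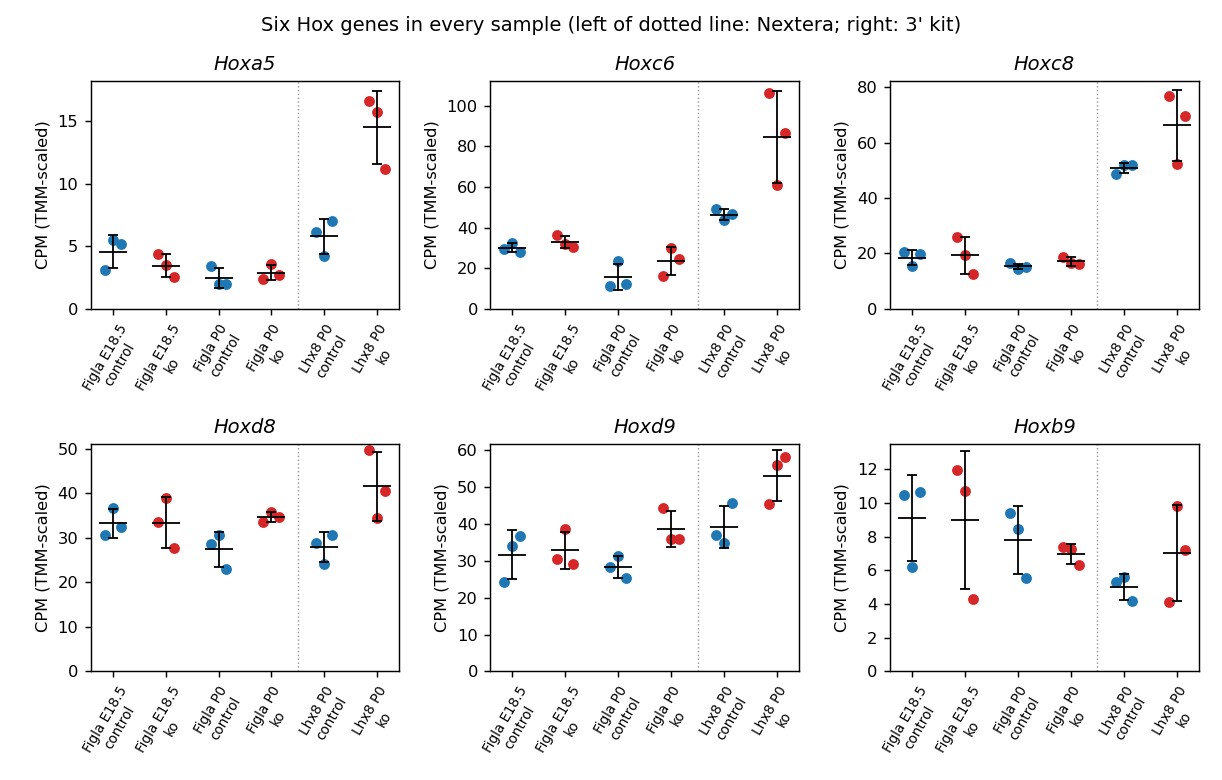
CPM of 6 Hox genes in every sample (points), with group mean and SD (bars); blue marks controls, red knockouts, and the dotted line separates the Figla set from the 3' reads of the Lhx8 set, whose levels are not on 1 scale. In the Lhx8 set all knockouts of Hoxa5, Hoxc6, Hoxc8 and Hoxd8 lie above all controls, while Hoxb9 overlaps in each comparison.

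Marker mRNA of somatic cells of the stroma and pregranulosa was higher in the same samples. The summed level of 6 stromal markers (Pdgfra, Nr2f2, Col1a1, Dcn, Tcf21 and Wt1), all of them detected, was 2275 to 2690 CPM in Lhx8-set controls and 3317 to 3711 CPM in knockouts, and that of 6 pregranulosa markers was 782 to 870 against 976 to 1068 CPM. The summed Hox level was 277.6 to 328.6 CPM in controls and 399 to 489 CPM in knockouts. When libraries were scaled to the 12 stromal and pregranulosa markers, a scaling chosen after the data were seen that puts the median of all genes at -0.28, the Hox median became 0.17, Hoxa5 kept its call (log2 fold change 1.01, adjusted p = 0.0169) and Hoxc6 did not (0.54, adjusted p = 0.0606). Surface epithelium markers were 192 to 318 CPM in controls and 324 to 377 CPM in knockouts, and erythroid markers 3898 to 5975 against 4610 to 11271 CPM. Endothelial sums (438 to 475 against 461 to 545 CPM) and macrophage sums (51.6 to 64.8 against 59.8 to 92.3 CPM) overlapped. Germ cell sums also overlapped, at 490 to 654 against 469 to 538 CPM. Of the 5 germ cell markers, however, 2 were called lower, Sycp3 and Ddx4, against 7.29% of all genes tested. Both calls held in 11 of 11 alternatives, while 1 of the 5 markers stood above 0. The part of these lists in the Hox differences was not tested.

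**Figure D3:**
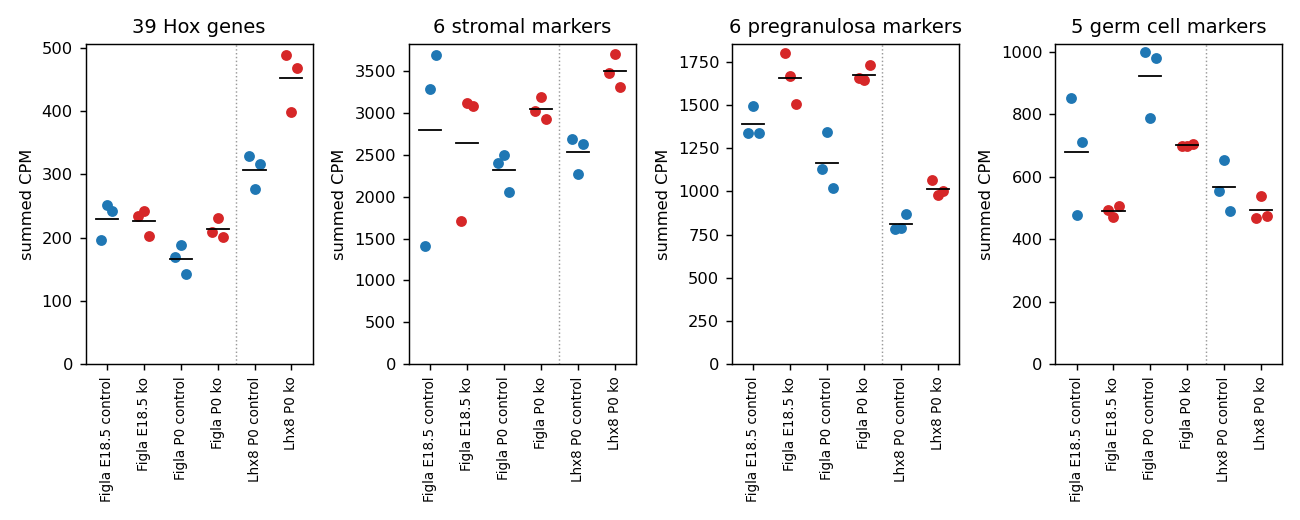
Summed CPM in every sample (points, with the group mean as a line) of the 39 Hox genes and of the stromal, pregranulosa and germ cell marker lists; blue marks controls and red knockouts. At P0 the Hox, stromal and pregranulosa sums of all knockouts lie above those of all controls in both sets, while the germ cell sums of the Figla knockouts lie below their controls.

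Without Figla at P0, 24 of the 27 Hox genes tested stood above 0, against 51.8% of all genes, with a median log2 fold change of 0.34 against 0.02, but none passed the test. Over the 17321 genes tested, 16% were called, 5.12% higher and 10.9% lower. Unadjusted p-values under 0.05 were found for 4 Hox genes, all higher, against 13.3% of all genes. Groups did not overlap in 5, all higher, against 15.2%.

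Hoxd9, which lies beside Hoxd8 and marks lower trunk, came closest. It had 28.3, 31.5 and 25.4 CPM in controls and 44.3, 36.0 and 35.9 in knockouts (log2 fold change 0.45, SE 0.14, adjusted p = 0.0505), and was called by DESeq2. Its neighbour Hoxd8 had 28.7, 30.6 and 23.1 against 33.6, 35.7 and 34.7 CPM (0.34, SE 0.14, adjusted p = 0.118). Hoxc5 had 12.1, 15.9 and 11.9 against 18.9, 19.8 and 16.4 CPM (0.47, SE 0.17, adjusted p = 0.0898). In these 3 genes every knockout lay above every control by a small margin. Hoxa3 had 4.16, 4.08 and 3.91 CPM in controls and 6.12, 8.92 and 5.30 in knockouts (0.75, SE 0.26, adjusted p = 0.0786). Exon bases of Hoxa3 are shared to 27.1% with 5 other genes, 4 of them on the opposite strand, and the libraries carry no strand.

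The 2 genes that rose in Lhx8 knockouts did not pass this test. Hoxa5 had 3.40, 1.99 and 1.96 CPM in Figla-set P0 controls and 2.37, 3.58 and 2.70 in knockouts, which overlap (log2 fold change 0.24, SE 0.33, adjusted p = 0.67). Hoxc6 had 11.4, 23.3 and 12.3 against 16.2, 29.9 and 24.3 CPM (0.60, SE 0.29, adjusted p = 0.195). In both groups replicate 2 was the highest for Hoxc6. The difference between the Lhx8 and Figla effects was not tested, since the kits differ. Hoxb9 and Hoxa4, highest in their clusters, had log2 fold changes of -0.15 (SE 0.24) and 0.22 (SE 0.31).

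In these samples too the somatic markers were higher in knockouts. The stromal sum was 2055 to 2503 CPM in Figla-set P0 controls and 2926 to 3196 CPM in knockouts, the pregranulosa sum 1021 to 1343 against 1643 to 1731 CPM, and the germ cell sum 788 to 998 against 697 to 705 CPM. Endothelial markers summed to 254 to 364 CPM in controls and 431 to 484 CPM in knockouts, and macrophage markers to 37.2 to 38.6 against 51.5 to 56.2 CPM; their part in the Hox difference was not tested. The summed Hox level was 141.9 to 188 CPM in controls and 202 to 231 CPM in knockouts. Scaled to the 12 somatic markers, the median log2 fold change was -0.35 over all genes and -0.016 over the Hox genes. Of the 27 Hox genes, 13 then stood above 0 and 0 were called, but shares of all genes are not given for this scaling.

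**Figure D4:**
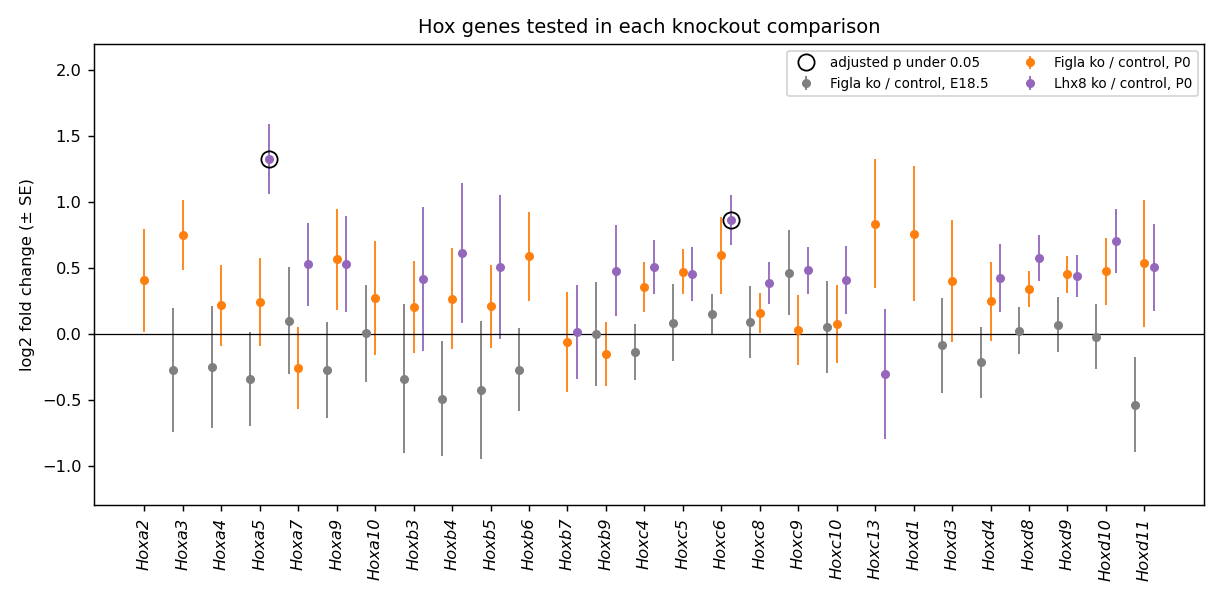
Log2 fold change (knockout over control, points) with SE (bars) of each Hox gene tested in the Figla comparisons at E18.5 (grey) and P0 (orange) and in the Lhx8 comparison (purple), in order of cluster and paralog; circles mark an adjusted p under 0.05. Hoxa5 and Hoxc6 in the Lhx8 set carry the 2 circles, most purple and orange points lie above 0, and the grey points lie on both sides.

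At E18.5 no Hox gene passed the test between Figla knockouts and controls. Of 23 tested, 0 were called by edgeR or by DESeq2, against 0.0062% of the 16131 genes tested (1 gene), and 0 had an unadjusted p under 0.05, against 3.76%. Log2 fold changes ran from -0.54 to 0.46 with a median of -0.09, against 0.01 over all genes. Hoxd9 had 24.3, 34.2 and 36.7 CPM in controls and 30.5, 38.7 and 29.3 in knockouts, and Hoxc6 had 29.4, 32.5 and 28.2 against 36.2, 31.9 and 30.5. For Hoxa5 the values were 3.08, 5.50 and 5.14 against 4.39, 3.46 and 2.51 CPM. All 3 genes overlapped between groups. The stromal sums spread widely, from 1411 to 3695 CPM in controls and from 1709 to 3118 CPM in knockouts, and were lowest in replicate 1-2 of both groups. Pregranulosa sums were 1336 to 1497 CPM in controls and 1504 to 1803 CPM in knockouts, without overlap. The summed Hox level overlapped, at 195.9 to 251 against 203 to 242 CPM. Macrophage sums (43.2 to 53.6 against 64.0 to 223 CPM) and erythroid sums (641 to 802 against 846 to 2690 CPM) were also higher without overlap. Germ cell sums overlapped. The part of these lists in the Hox levels was not tested. Without control replicate 3, whose Figla level was low, 0 Hox genes were called among 89 genes in all.

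The effect of Figla loss was also compared between the ages. In a model of all Figla samples, the difference of the P0 and E18.5 effects was above 0 in 25 of 30 Hox genes tested, against 50.8% of all genes, with a median of 0.46 against 0.01. None was called, as for all 18379 genes (0%), and 0 Hox genes had an unadjusted p under 0.05, against 5.32%; DESeq2 called 0 Hox genes and 3 genes in all. The data thus give no Hox gene whose response was shown to differ between E18.5 and P0.

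Between E18.5 and P0, Hox levels in Figla-set controls were mostly lower at the later age, again without a call. The ages may also be library batches, and age and batch cannot be told apart here. The same P0 controls (n = 3) also enter the Figla comparison at P0 and the difference of the Figla effects. The directions seen in these comparisons are thus not separate observations. The summed Hox level averaged 166 CPM in P0 controls, 214 in P0 knockouts, 230 in E18.5 controls and 227 in E18.5 knockouts. The log2 difference was below 0 in 24 of 30 genes, against 52.1% of all genes, with a median of -0.50 against -0.02. No gene among 18379 was called by edgeR (0%), while 10 Hox genes and 11% of all genes were lower with an unadjusted p under 0.05. DESeq2 called 1616 genes, among them Hoxd11, Hoxd4 and Hoxc6. Groups did not overlap in 9 Hox genes, all lower at P0, against 12.9%.

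Hoxc6 had 29.4, 32.5 and 28.2 CPM at E18.5 and 11.4, 23.3 and 12.3 at P0 (log2 difference -0.94, SE 0.27, adjusted p = 0.0804). Hoxd4 had 5.19, 8.42 and 7.02 against 3.65, 3.60 and 2.66 CPM (-1.04, SE 0.28, adjusted p = 0.0710). Its neighbour Hoxd3, with which it shares exon bases, had 1.83, 3.26 and 2.00 against 0.509, 1.04 and 0.704 CPM (-1.61, SE 0.41, adjusted p = 0.0661). In these 3 genes the P0 samples all lay below the E18.5 samples. Hoxd10 (7.42, 8.07 and 6.89 against 4.33, 6.07 and 4.54 CPM), Hoxb6 (2.74, 4.29 and 3.26 against 2.72, 1.90 and 1.41) and Hoxc4 (16.7, 17.4 and 21.9 against 13.2, 16.1 and 11.2) also did not overlap, with log2 differences of -0.58, -0.75 and -0.47. Hoxa5 was lower by a log2 difference of -0.87 (SE 0.35, adjusted p = 0.16), with overlap. Hoxd9, the highest gene, differed little, at -0.15 (SE 0.18). Skeletal muscle markers, which mark tissue outside the ovary, summed to 10.0 to 51.2 CPM at E18.5 and 3.22 to 7.04 CPM at P0. Endothelial markers (399.9 to 436 against 254 to 364 CPM) and macrophage markers (43.2 to 53.6 against 37.2 to 38.6 CPM) were also lower at P0 without overlap. The part of these 3 lists in the Hox difference was not tested.

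HOX proteins bind DNA with TALE homeodomain cofactors of the PBX, MEIS and PKNOX families. In Figla knockouts at P0, Pbx2 (log2 fold change 0.55, SE 0.09, adjusted p = 0.0021) and Pbx3 (0.52, SE 0.11, adjusted p = 0.0102) rose, and Pknox1 stood at -0.20 (SE 0.12). Scaled to the somatic markers, neither call remained (Pbx2 0.19, Pbx3 0.16). Leaving out 1 sample kept the call of Pbx2 in 6 of 6 cases and of Pbx3 in 5. In Lhx8 knockouts Meis2 (0.50, SE 0.16, adjusted p = 0.0722), Meis1 (0.46, SE 0.19, adjusted p = 0.143), Pbx3 (0.44, SE 0.16, adjusted p = 0.110) and Pbx2 (0.05, SE 0.14) did not pass the test.

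Polycomb complexes keep Hox genes silent by methylating histone H3 at lysine 27 and compacting chromatin, and Trithorax complexes oppose them. Of 21 Polycomb genes, 5 fell in Figla knockouts at P0: Pcgf6 (log2 fold change -0.99, SE 0.13, adjusted p = 0.0006), Cbx7 (-0.61), Eed (-0.50), Phc1 (-0.49) and Pcgf5 (-0.44). Of all genes tested in that comparison 10.9% were called lower and 5.12% higher, and in the Lhx8 comparison 7.29% and 3.06%. In Lhx8 knockouts, Phc3 rose (0.83) and Jarid2 fell (-0.57) among 20 tested, with medians of -0.14 there and -0.16 in Figla knockouts. Under the somatic scaling, which lowers all genes alike, the Polycomb medians were -0.47 without Lhx8 and -0.54 without Figla. Among 10 Trithorax genes and H3K27 demethylases, Kdm6b, a demethylase that removes the Polycomb mark, rose in both knockouts at P0, by 0.58 (SE 0.13) without Figla and 1.10 (SE 0.20) without Lhx8. Kmt2a also rose without Lhx8 (0.50), and Wdr5 (-0.50) and Rbbp5 (-0.55) fell without Figla. Pcgf6 without Figla and Kdm6b without Lhx8 kept their calls with any 1 sample left out and under the somatic scaling (-1.37 and 0.78). Kdm6b without Figla had 0.22 and no call under that scaling, Kmt2a 0.18 and no call, and the calls of Kmt2a, Pcgf5 and Rbbp5 held in 1 of 6 cases with a sample left out, that of Cbx7 in 2 of 6 and that of Eed in 3 of 6. Under that scaling the 10 Trithorax genes and demethylases had medians of -0.42 without Figla and -0.34 without Lhx8. Of 6 upstream and flanking genes (Cdx1, Cdx2, Cdx4, Evx1, Evx2 and Gdf11), Evx2 had no count in any group and none of those tested was called.

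Among the 46 other genes inside the clusters, 7 had counts enough in the Lhx8 set and 6 in the Figla set at P0, and none was called in any comparison. Hoxaas2, an antisense RNA of the Hoxa cluster, had 0.787 to 2.30 CPM in Lhx8-set controls and 3.48 to 4.34 CPM in knockouts (log2 fold change 1.38, SE 0.44, adjusted p = 0.0740). Gm53, in the Hoxb cluster, had 3.24 to 4.61 against 5.75 to 8.93 CPM (0.93, SE 0.30, adjusted p = 0.0757). Neither overlapped between groups. In Figla-set P0 controls Gm53 averaged 4.92 CPM per kb, more than any coding gene of the Hoxb cluster. Hoxd3os1, antisense to Hoxd3 and Hoxd4, averaged 2.36 CPM per kb.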

How the data were processed

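Whole ovaries were profiled in 20 libraries. Per the labels' protocols, Nextera libraries of double-stranded cDNA were made for the Figla set and QuantSeq 3' FWD libraries for the Lhx8 set. The authors deposited raw counts per gene. cutadapt, HISAT2 and the build GRCm38.p5 are named in the submitters' processing notes. Per the file headers, featureCounts 1.6.0 counted reads without regard to strand on the exons of GENCODE M12. No molecular identifiers are recorded, and the SDs and SEs rest on the spread between samples.

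Members were found by symbol; gene names came from a GRCm38 table of Ensembl IDs. Counts were tested with edgeR 4.0.16 in R 4.3.3 (filterByExpr with minimum count 10 and minimum total 15, TMM scaling, quasi-likelihood test, Benjamini-Hochberg adjustment over all genes tested, threshold 0.05, no minimum fold). Each knockout was compared with its own controls; for age and for the difference of the Figla effects, 1 model held every Figla sample. CPM are on TMM-scaled library sizes. The near-identical E18.5 libraries differed by a chi-square per degree of freedom of 1.12 and 1.32, against 6.62 to 62.3 in 22 other pairs, and were summed. The procedure was tested on simulated data.

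Values in every sample are given for Hox genes past the threshold in any test, for the highest of each cluster, and for those with an unadjusted p under 0.05 whose groups do not overlap. Other members were named by position, rank or exon sharing, some after their values were seen. Members and lists were chosen with earlier results of these data known; 1 gene of the cofactor list is not reported here. Alternatives were DESeq2 1.42.0, other scaling, no filter, other groupings, left-out samples and a replicate block. Deposit-order numbers of the Figla libraries pair no samples by label, and Lhx8 numbers did not pair them (correlations of deviations -0.15, 0.05 and 0.04).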

Additional observations from a re-analysis of the deposited data

How the results depend on the processing

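Values in every sample were given for 20 pairs of a Hox gene and a comparison, chosen by the rule for named genes. Of their 271 values under an alternative, 245 kept both direction and side of the threshold, 19 gained a call, 5 lost it and 2 reversed. The 2 that reversed were Hoxa5 (-0.12) and Hoxd8 (-0.016) without Figla at P0, under scaling to the 12 somatic markers, which was chosen after the data were seen and shifts all genes alike. Over the 27 genes tested there, that scaling left 13 above 0 in place of 24, while the median of all genes lay below 0. For Figla at P0, where 0 Hox genes were called, other size factors and DESeq2 each called 1 (Hoxd9), no filter on low counts called 2 (Hoxd9 and Hoxc6), and leaving out 1 sample called 0 to 3, with 3 (Hoxd9, Hoxc5 and Hoxc6) without control replicate 2. A replicate block on the deposit-order numbers called 4 (Hoxd9, Hoxa3, Hoxc5 and Hoxc6) and moved the count over all genes from 2767 to 4680. Every Figla sample correlated best with its own number (0.57, 0.52 and 0.26 at E18.5; 0.39, 0.29 and 0.39 at P0), a hint from the data and not from the design. At E18.5 the block called 0 Hox genes and 28 genes in all, against 78 by DESeq2 and 1 in the reported test, and grouping by title called 1 Hox gene, Hoxa3. For Lhx8, where 2 were called, no filter called 5 (Hoxd10, Hoxd8, Hoxa5, Hoxb13 and Hoxc6), the somatic scaling called 1, the replicate block called 2 (931 genes in all against 1582), and leaving out 1 sample called 0 to 3, with 0 without control replicate 2 and 1 without control replicate 1 or 3. In the Figla and Lhx8 comparisons at P0, calls over all genes are given for the main test and the replicate block alone. The other counts of Hox calls there have no share of all genes beside them. For age in controls, no filter called 1 (Hoxc6), DESeq2 called 3 and each library as its own sample called 3 (Hoxd3, Hoxd4 and Hoxc6). Leaving out 1 sample called 0 Hox genes for age, but 556 genes in all without E18.5 control replicate 4 and 506 without E18.5 knockout replicate 1-2. No block was fitted for age, since its groups share 1 number after summing. For the difference of the Figla effects, a replicate block within age called 0. The number of Hox genes above 1 CPM per kb stayed between 13 and 14 with other scaling, unshared exon bases or a sample left out, and was 21 above 0.5. Depending on the comparison, 9 to 19 of the 39 genes had too few counts to be tested.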

Other observations

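Hoxb13, the most posterior gene of its cluster, fell below the filter on low counts and was named after its values were seen. It had 0, 10 and 16 counts in the Lhx8 knockouts and 0, 0 and 0 in their controls. In the Figla set it had 2, 6 and 3 counts in P0 knockouts, 0, 1 and 0 in P0 controls, and 0 or 1 in each E18.5 sample. The Lhx8 knockout counts come from 2 of 3 libraries, and without a filter edgeR called the gene in that set. Hoxd1 had 4 to 17 counts in each Figla sample and 0 or 1 in each Lhx8 library.

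Gm11539, a processed pseudogene between Hoxb13 and Hoxb9 (GRCm38, chromosome 11, 96248633 to 96249189), averaged 211 CPM in Lhx8-set controls and 2.38 CPM in Figla-set P0 controls, with 71.3 to 211 CPM in the Lhx8 knockouts. Within the Hoxb cluster it was read far above any coding Hox gene by the 3' kit. Whether these reads came from this locus was not tested.

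Oviduct and Mullerian duct markers, the tissue in which posterior Hox genes act, were higher in sum in both knockouts at P0, at 139.5 to 181 against 212 to 289 CPM in the Figla set and 184 to 197 against 241 to 302 CPM in the Lhx8 set. Ovgp1 rose in both, by a log2 fold change of 1.35 (SE 0.28) without Figla and 1.15 (SE 0.32) without Lhx8, where the call held in 0 of 6 cases with a sample left out and not under the replicate block or the somatic scaling. Msx1 rose by 1.65 and Wnt7a fell by 2.48 on the log2 scale without Figla. Emx2 was also called higher without Lhx8, a call held in 1 of 6 cases with a sample left out and not under the somatic scaling. At E18.5 the sum of this list was higher in Figla knockouts too, at 159 to 189 against 197 to 231 CPM. At P0 Hoxa9, which marks the oviduct, had log2 fold changes of 0.57 (SE 0.38) without Figla and 0.53 (SE 0.36) without Lhx8. Neither was called, and Hoxa11 had 0 or 1 count per P0 sample.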
